A study of Arabidopsis thaliana with 39 samples.

Results

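The 10 genes described here carry the synthesis and signalling of abscisic acid (ABA), the plant hormone of drought and seed dormancy. They were chosen by locus identifier: the receptor PYL4 (AT2G38310), the phosphatases ABI1 (AT4G26080), ABI2 (AT5G57050), HAB1 (AT1G72770), PP2CA (AT3G11410) and HAI1 (AT5G59220), the kinase SNRK2.6 (AT4G33950), the transcription factors ABF3 (AT4G34000) and ABI5 (AT2G36270), and the synthesis enzyme NCED3 (AT3G14440). These are 10 of the 33609 genes listed in the series, all 10 were listed in each of the 4 tables, and all 10 passed the filter on low values in each. RNA was sequenced from 39 libraries of Arabidopsis thaliana, in 13 groups of 3. The wild type Col0 was grown beside fld and ld in seedling set 1. Set 2 held Col0, ld, pol2a and the ld pol2a mutant that carries both, and set 3 held Col0 and ld. A table of dissected shoot apices held Col0, ld, pol2a and ld pol2a, with 30 apices pooled per library. All plants were 7 days old and had 16 h of light per day, and no treatment with ABA or drought is named. The ld mutant is affected in LUMINIDEPENDENS, a nuclear homeodomain protein, fld in a histone demethylase-like protein of the same flowering pathway, and pol2a in the subunit of DNA polymerase epsilon that does the synthesis. POL2A is also known as ABO4, a name that comes from a mutant oversensitive to ABA. No source used here names the alleles or says whether replicate libraries came from separate sowings, so the p-values measure the spread between libraries, which may be technical.

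ABA works through a chain of inhibitors. Without the hormone, clade A protein phosphatases such as ABI1 hold the SnRK2 kinases inactive. ABA bound by a PYR/PYL receptor captures the phosphatase, the freed kinase phosphorylates bZIP transcription factors such as ABF3 and ABI5, and these bind ABA-responsive elements, promoter sites built on an ACGTG core. Many genes of the chain, the phosphatases among them, are themselves induced by ABA, and SNRK2.6 is best known for closing stomata in guard cells. NCED3 cleaves an epoxycarotenoid, the rate-limiting step of ABA synthesis in drought.

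In RefSeq's TAIR10.1 annotation, PYL4 at chr2:16049918-16051356 (plus strand), ABI1 at chr4:13219915-13222376 (minus strand), ABI2 at chr5:23087122-23089631 (plus strand), HAB1 at chr1:27389948-27393327 (plus strand), PP2CA at chr3:3583782-3585850 (minus strand) and HAI1 at chr5:23894404-23896939 (minus strand) are the genes of the receptor and the phosphatases. The kinase gene is SNRK2.6 at chr4:16271745-16274825 (plus strand), the transcription factors are ABF3 at chr4:16295334-16298285 (plus strand) and ABI5 at chr2:15204659-15207636 (minus strand), and the synthesis gene is NCED3 at chr3:4831286-4834015 (minus strand).

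The promoters of the 10 genes differ in how often they carry that core. In the 250 bases before the annotated start (RefSeq, TAIR10.1), ACGTG was searched on both strands, with a palindromic CACGTG counting as 2 overlapping matches. ABI5 held 7 matches, PP2CA held 5, HAB1 and ABF3 held 1 each, and the other 6 genes held none in this window. The core was present in 4 of the 10 members and in 22.9% of the 27443 windows of the same length. The longer form ACGTGTC was present in 3 members and 3.68% of windows, ACGTGGC in 1 member and 3.37%, and CACGTG in 2 members and 6.49%. The 3 promoters below contrast in this and run 5′ to 3′ on the gene's strand, with the core on either strand in capitals: the pair richest in matches, and that of NCED3, the member with the largest difference on the relative scale below. The windows are chr3:3585851-3586100 for PP2CA, chr2:15207637-15207886 for ABI5 and chr3:4834016-4834265 for NCED3, all on the minus strand.
PP2CA: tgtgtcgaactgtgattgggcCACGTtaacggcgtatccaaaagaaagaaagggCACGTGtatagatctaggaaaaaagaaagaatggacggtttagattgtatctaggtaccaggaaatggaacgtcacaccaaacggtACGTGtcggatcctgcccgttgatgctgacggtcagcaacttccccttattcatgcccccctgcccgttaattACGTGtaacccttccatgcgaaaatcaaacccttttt
ABI5: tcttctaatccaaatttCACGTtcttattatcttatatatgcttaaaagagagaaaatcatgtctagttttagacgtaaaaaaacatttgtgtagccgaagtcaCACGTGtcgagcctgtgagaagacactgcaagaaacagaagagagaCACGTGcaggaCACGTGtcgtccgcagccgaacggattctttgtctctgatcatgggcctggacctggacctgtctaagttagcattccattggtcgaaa
NCED3: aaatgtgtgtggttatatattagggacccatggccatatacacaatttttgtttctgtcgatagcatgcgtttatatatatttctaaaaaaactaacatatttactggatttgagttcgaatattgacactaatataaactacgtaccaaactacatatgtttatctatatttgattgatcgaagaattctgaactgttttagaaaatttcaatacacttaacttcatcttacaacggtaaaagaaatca
A match is a string of letters and not a mapped binding site.

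In units of 1000000 counted reads, depth was 10.4 to 37.8 per seedling library and 11.95 to 21.1 per apex library. Seedling values are given as signal, the count per gene that the authors divided by 1 factor per library, read here as a spike-in factor (an added external RNA). On that scale most genes moved together: the median log2 difference from Col0 was 1.66 in fld and 1.23 in ld of set 1, 0.56 in ld, 0.06 in pol2a and 1.48 in ld pol2a of set 2, and 0.69 in ld of set 3. Each comparison is therefore also given on a relative scale, where each library was divided by its median ratio over genes, which sets that shift to about 0. LD was at 17.9 ± 3.35 CPM (counts scaled by library size; ± SD) in Col0 apices and 8.34 ± 3.64 in ld apices (edgeR, adjusted p = 0.0912), and in ld seedlings its relative log2 difference was 1.26 ± 0.07, 0.23 ± 0.09 and -0.26 ± 0.05 in sets 1, 2 and 3. POL2A (listed as TIL1, AT1G08260) was higher in pol2a seedlings, at 0.67 ± 0.06, and FLD was lower in fld, at -4.16 ± 0.22. Without the alleles, neither the LD nor the POL2A level tests a label. FLC, the flowering repressor, was higher in ld in all 4 tables, by 3.41 ± 0.15 in set 2, and lower in pol2a there, at -3.09 ± 0.15. Apex libraries numbered 3 stood apart in Col0 and ld: the chi-square per degree of freedom over genes was 19.0 and 25.8 between Col0 library 3 and the other Col0 libraries, which differed from each other by 5.86, and 64.1 and 43.0 between ld library 3 and the other ld libraries, which differed by 6.22. Apex results are given with and without the libraries numbered 3, an alternative chosen after seeing the data. It also drops library 3 of pol2a and ld pol2a, where library 1 stood furthest from the others. In pol2a library 1 was at 12.6 and 24.1, against 8.94 between libraries 2 and 3. In ld pol2a it was at 9.24 and 13.8, against 3.26. The defining apex markers WUS and CLV3 were at or near 0 CPM in the apex libraries, and STM was at 4.90 ± 0.901 CPM in Col0 and 12.3 ± 2.24 in pol2a.

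Among the 10 genes, the receptor had the most RNA. In Col0, RPKM values (reads scaled here by exon length and library size) of PYL4 were 64.2 ± 2.49, 75.0 ± 4.87 and 78.6 ± 1.21 in sets 1, 2 and 3 and 42.4 ± 24.7 in apices (SD, n = 3), the highest level of the members in each table. PP2CA, ABI1 and ABF3 came next in the seedling sets, with PP2CA at 30.2 ± 0.0887 and ABI1 at 18.9 ± 0.757 RPKM in set 1, and the order of these 2 changed in set 3, where ABI1 was at 23.7 ± 0.152 and PP2CA at 15.4 ± 0.448. HAB1, SNRK2.6 and ABI2 lay between 2.43 and 9.77 RPKM. HAI1, ABI5 and NCED3 were the lowest 3 in each table. The neighbours HAI1 (1.07 ± 0.141) and ABI5 (1.07 ± 0.326) in set 2 did not differ beyond their spread, and in apices the ranges of PYL4 and ABI1 overlapped. NCED3 was covered by 11 to 95 reads per library in set 2 and by 1 to 39 in apices, so its apex values carry large counting error. ABI1 overlaps AT4G26070 by 22 bases and ABF3 overlaps AT4G34020 by 24 bases on the opposite strand. No source used here says if reads were counted by strand, so those in the overlaps are uncertain. Of the other ABA genes named below, ABF4 overlaps opposite-strand genes by up to 2516 bases and ABF1 by up to 620. EEL overlaps AT2G41060 on its own strand and AT2G09215 on the opposite strand, by up to 817 bases. The values of ABF4, ABF1 and EEL carry the same uncertainty over a larger part of the gene.

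In pol2a seedlings the change that stood highest among the members was in synthesis. NCED3 signal was 12.2, 16.1 and 22.0 in the 3 Col0 libraries of set 2 and 84.7, 67.8 and 63.2 in pol2a. All pol2a libraries lay above all Col0 libraries, with no overlap. The mean signal rose from 16.8 ± 4.92 to 71.9 ± 11.3 (SD, n = 3), a log2 difference of 2.06 ± 0.23 (SE, limma, adjusted p = 1.15e-07) or 4.18-fold on the log2(signal + 1) scale. On the relative scale the difference was 2.03 ± 0.23 (SE, limma, adjusted p = 1.96e-07), higher than in 99.3% of the genes tested. It was between 1.83 and 2.24 with any 1 library of these groups left out.

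**Figure D1:**
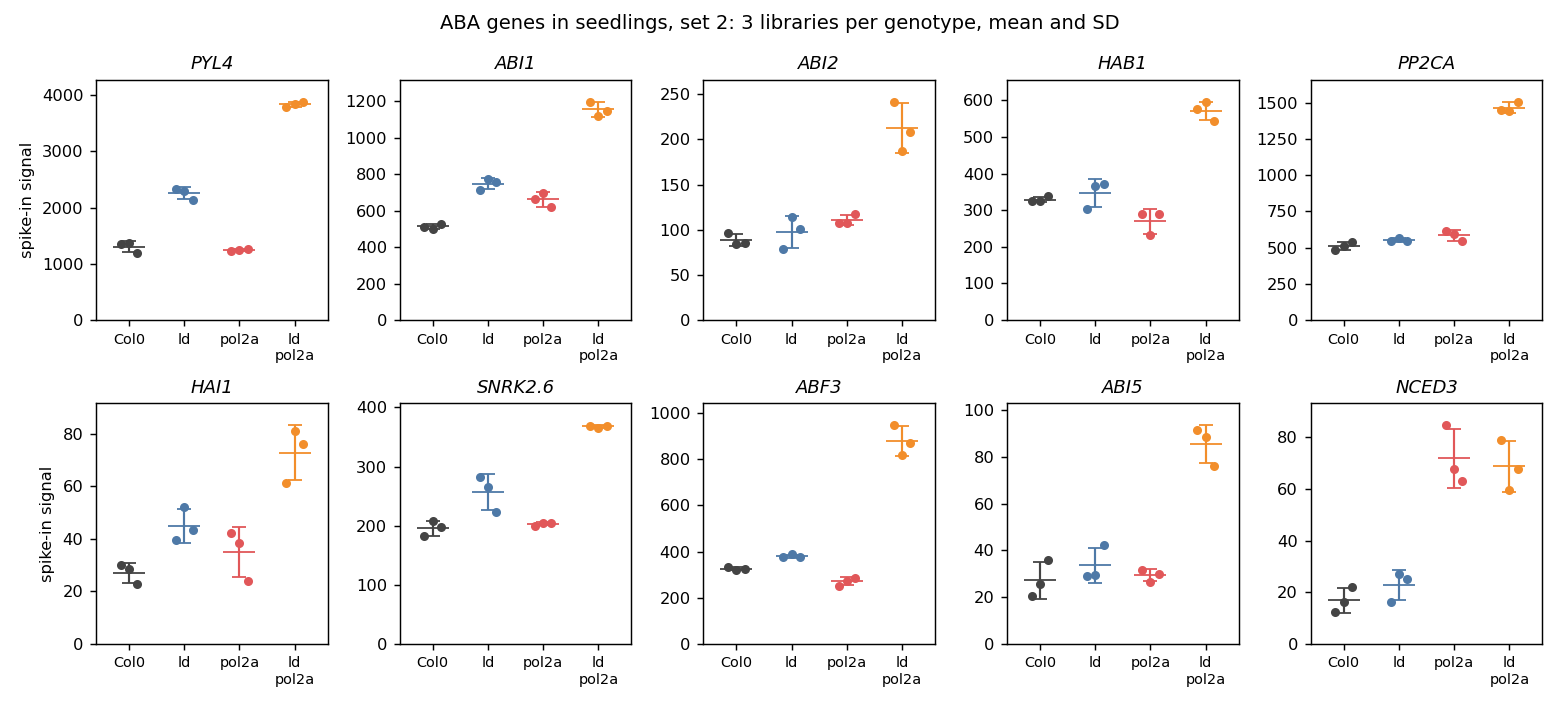
Spike-in signal (y axis, linear, from 0) of the 10 ABA genes in seedling set 2 by genotype (x axis); points are the 3 libraries, the long bar is the mean and the error bars are the SD. NCED3 lies between 63.2 and 84.7 in pol2a and between 12.2 and 22.0 in Col0, whereas most of the other genes are highest in ld pol2a, as is the median of all genes.

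The phosphatases that restrain the pathway moved by less and in both directions in pol2a seedlings. ABI1 relative signal was 736, 711 and 766 in Col0 and 896, 977 and 869 in pol2a, and it rose by 0.31 ± 0.06 (SE, limma, adjusted p = 9.58e-05) on the log2 scale. HAB1 relative signal was 469, 460.4 and 490.1 in Col0 and 389, 323 and 407 in pol2a, and its log2 difference was -0.35 ± 0.09 (SE, limma, adjusted p = 0.00198). Neither gene's libraries overlapped between the genotypes, with ABI1 above and HAB1 below. PP2CA had a small rise of 0.14 ± 0.05 (SE, limma, adjusted p = 0.0281) with overlapping libraries (697, 729 and 782 against 833, 832 and 765), which no longer passed when any of 4 single libraries was left out. ABI2 was at 0.26 ± 0.13 (adjusted p = 0.0958) and HAI1 at 0.28 ± 0.20 (adjusted p = 0.246), and neither passed the threshold with all libraries of the set in the fit. ABI2 passed with only the 2 groups compared (adjusted p = 0.0465), and HAI1 without pol2a library 3 (0.51, adjusted p = 0.0312).

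Downstream of the phosphatases, the transcription factor ABF3 fell in pol2a seedlings. Its relative signal was 479.8, 455 and 472 in Col0 and 339, 383 and 401 in pol2a, all pol2a libraries below all Col0 libraries, a log2 difference of -0.33 ± 0.07 (SE, limma, adjusted p = 0.000479). ABI5, the bZIP factor of seed germination, was 29.2, 36.2 and 52.1 in Col0 and 42.5, 36.9 and 42.2 in pol2a (0.09 ± 0.21 SE, limma, adjusted p = 0.745), with overlapping libraries. The kinase SNRK2.6 was 262, 295 and 286 in Col0 and 269.8, 285 and 287 in pol2a, a difference of 0.00 ± 0.08 (SE, limma, adjusted p = 0.994). The receptor PYL4 had a small log2 difference of -0.12 ± 0.05 (SE, limma, adjusted p = 0.0381), a call that was also lost when any of 4 single libraries was left out. In all, 3 members were higher and 3 lower in pol2a, against 30% and 29.9% of all genes, so the shares of members called were those of the background. The spike-in scale gave 4 higher and 2 lower, against 34% and 25.2%, with ABI2 among the higher (0.31 ± 0.13, adjusted p = 0.0417) and PYL4 no longer passing (adjusted p = 0.305). That ABI2 call was lost with no filter on low values (adjusted p = 0.0656) and when any of 5 of the 6 libraries was left out (adjusted p between 0.0608 and 0.123). The members' median log2 difference was 0.11 and that of all genes was 0.00.

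In ld pol2a seedlings the signal of all 10 members rose, as did 97.9% of all genes. The members' median log2 difference was 1.41 and that of all genes 1.48. The receptor PYL4, for example, was at a signal of 1355, 1365 and 1189.9 in Col0 and 3779.8, 3837 and 3881 in ld pol2a, a difference of 1.56 ± 0.05 (SE, limma, adjusted p = 8.92e-18), and on the relative scale it was at 0.08 ± 0.05 (adjusted p = 0.172). Relative to the shift, 3 members fell and 1 rose, against 28.3% and 29.2% of all genes. HAB1 relative signal was 304, 306 and 272 in ld pol2a, below all Col0 libraries, and fell by 0.69 ± 0.09 (SE, limma, adjusted p = 1.36e-06). SNRK2.6 was 195, 188 and 184 and also did not overlap with Col0, and its difference was -0.57 ± 0.08 (SE, limma, adjusted p = 5.17e-06). ABI1 was 632, 576 and 573 and lay below Col0, whereas it lay above Col0 in pol2a, with a difference of -0.31 ± 0.06 (SE, limma, adjusted p = 8.32e-05). Set beside ld instead, ld pol2a had 3 members higher and 3 lower, against 30.6% and 29.6% of all genes, and beside pol2a it had 2 higher and 5 lower, against 27% and 27.3%. The comparisons with Col0 share the Col0 libraries of set 2.

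NCED3 differed between the scales in ld pol2a seedlings. Its signal was 16.1, 27.1 and 25.1 in ld and 79.0, 59.5 and 67.9 in ld pol2a, so ld pol2a lay above Col0 and ld and overlapped with pol2a. On the spike-in scale ld pol2a differed from Col0 by 2.00 ± 0.23 (SE, limma, adjusted p = 3.1e-08) and from pol2a by -0.06 ± 0.23 (SE, limma, adjusted p = 0.794). On the relative scale NCED3 was 17.5, 23.0 and 31.9 in Col0, 15.5, 26.3 and 24.7 in ld, 114, 94.8 and 88.6 in pol2a and 41.7, 30.6 and 33.9 in ld pol2a, where the last group overlapped with Col0. There it was above Col0 by 0.56 ± 0.23 (SE, limma, adjusted p = 0.0425) and below pol2a by a difference of -1.46 ± 0.23 (SE, limma, adjusted p = 1.97e-05). The rise over Col0 no longer passed with no filter on low values (adjusted p = 0.073) or without Col0 library 1 or 2 or ld pol2a library 1 or 3 (adjusted p between 0.0691 and 0.207).

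The effect of ld differed with and without pol2a for 5 members on the relative scale. This interaction, the effect of ld in pol2a minus the effect of ld alone, was positive for 2 members and negative for 3, against 25.5% and 25.9% of all genes called so, near the background. It was -1.35 ± 0.33 (SE, limma, adjusted p = 0.0017) for NCED3 and -0.60 ± 0.08 (SE, limma, adjusted p = 3.06e-06) for ABI1. For ABF3 it was 0.61 ± 0.10 (SE, limma, adjusted p = 3.61e-05): ABF3 relative signal was 364, 376 and 369.9 in ld, below Col0, and 499.9, 421 and 434 in ld pol2a, overlapping with Col0. PP2CA also lay below Col0 in ld and overlapped with Col0 in ld pol2a, with 523, 549.7 and 541 in ld and 766, 744 and 754 in ld pol2a. Its interaction was 0.35 ± 0.07 (SE, limma, adjusted p = 0.000552). The 2 genes differed in pol2a, where ABF3 lay below Col0 and PP2CA overlapped with it. On the spike-in scale, where the median interaction of all genes was 0.86, the interaction of ABI1 turned positive, at 0.26 ± 0.08 (SE, limma, adjusted p = 0.00346), as did that of SNRK2.6 (-0.39 ± 0.11 relative and 0.47 ± 0.12 on the spike-in scale), and that of NCED3 was -0.48 ± 0.32 (limma, adjusted p = 0.162).

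The ld mutation alone was compared with Col0 in 3 seedling sets, each scaled and tested on its own. On the spike-in scale 9, 5 and 10 members rose in sets 1, 2 and 3 and none fell, against 97.1%, 79.8% and 94.4% of all genes that rose. Relative to the shift, 2 members were higher and 3 lower in set 1, 1 was higher and 4 lower in set 2, and 3 were higher and none lower in set 3. The shares of all genes called higher and lower on that scale were 25.4% and 27.6% in set 1, 18.2% and 16.2% in set 2, and 19.2% and 19.3% in set 3.

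ABI2 was called lower in ld in 2 of the 3 sets. Its relative signal in set 1 was 211, 188 and 194 in Col0 and 119, 112 and 96.5 in ld, all ld libraries below all Col0 libraries, a difference of -0.85 ± 0.10 (SE, limma, adjusted p = 4.94e-07). In set 2 it was 139, 120.3 and 124 in Col0 and 75.9, 110.1 and 98.9 in ld (-0.44 ± 0.13 SE, limma, adjusted p = 0.0139), again without overlap. This call was lost without Col0 library 1 (adjusted p = 0.0627) or ld library 1 (adjusted p = 0.0967). In set 3 it was 184, 189 and 178 in Col0 and 173, 164 and 159 in ld, below Col0 in every library, but the difference of -0.15 ± 0.07 (SE, limma, adjusted p = 0.103) did not pass. The spike-in scale turned the direction, with differences of 0.38 ± 0.11, 0.12 ± 0.13 and 0.53 ± 0.07, of which the one in set 2 did not pass (adjusted p = 0.403).

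NCED3 and HAI1, a phosphatase strongly induced by ABA, each passed the threshold in 1 of the 3 sets. NCED3 relative signal in set 1 was 52.9, 49.6 and 42.4 in Col0 and 24.9, 22.7 and 21.3 in ld, with no overlap and a difference of -1.04 ± 0.17 (SE, limma, adjusted p = 3.65e-05). It was -0.11 ± 0.23 in set 2 (adjusted p = 0.743) and -0.17 ± 0.10 in set 3 (adjusted p = 0.207). HAI1 relative signal in set 3 was 55.0, 43.3 and 34.9 in Col0 and 73.1, 79.1 and 72.5 in ld. All ld libraries lay above Col0, and the difference was 0.76 ± 0.15 (SE, limma, adjusted p = 0.00205). It was 0.36 ± 0.24 in set 1 (adjusted p = 0.221) and 0.17 ± 0.20 in set 2 (adjusted p = 0.564), and the differences between sets were not tested. In set 3 the seed maturation markers (OLEO1, CRA1, SESA3, CRU3) summed to a signal of 1.72 to 4.17 in Col0 and 55.4 to 87.3 in ld, and their part in the HAI1 result was not tested.

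ABF3 relative signal went opposite ways in sets 1 and 2. It was 328, 373 and 335 in Col0 and 441, 430.4 and 429 in ld of set 1, a rise of 0.33 ± 0.05 (SE, limma, adjusted p = 2.95e-05). In set 2 it was 479.8, 455 and 472 in Col0 and 364, 376 and 369.9 in ld, a difference of -0.34 ± 0.07 (SE, limma, adjusted p = 0.000842). The genotypes did not overlap in either set, and in set 3 ABF3 was at -0.03 ± 0.04 (adjusted p = 0.587). By spike-in signal ABF3 was higher in ld in all 3 sets (1.57 ± 0.06, 0.22 ± 0.07 and 0.66 ± 0.04). SNRK2.6 rose in ld of set 1 (0.36 ± 0.08 SE, limma, adjusted p = 0.000893) and did not pass in sets 2 (-0.17 ± 0.08) and 3 (-0.16 ± 0.07). HAB1 (-0.49 ± 0.09 SE, limma, adjusted p = 0.000204) and PP2CA (-0.45 ± 0.05 SE, limma, adjusted p = 1.24e-06) fell in set 2, and PP2CA also in set 1 by a small 0.11 ± 0.04 (adjusted p = 0.0407). That last call was lost when library pairs that differed by about sampling noise or less were counted as 1 sample (limma, adjusted p = 0.0678) and when any of 5 single libraries was left out. PYL4 had small rises in sets 2 (0.23 ± 0.05 SE, limma, adjusted p = 0.000685) and 3 (0.10 ± 0.03 SE, limma, adjusted p = 0.0123), the latter lost without Col0 library 1 (adjusted p = 0.0783). ABI1 rose in set 3 (0.14 ± 0.03 SE, limma, adjusted p = 0.00322) from 1683, 1721 and 1704 to 1926, 1898 and 1820.4, without overlap. ABI5 passed in none of the 6 seedling comparisons with Col0 on the relative scale, where it ranged from -0.27 to 0.27. In set 1 its libraries still did not overlap with Col0 (28.8, 26.5 and 27.6). They lay above it in ld (33.3, 35.5 and 31.5) and below it in fld (23.6, 24.7 and 20.1).

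In fld, which shares its Col0 libraries with ld of set 1, 4 members were higher and 4 lower on the relative scale, against 29.4% of all genes in each direction. All 10 rose on the spike-in scale, as did 98.8% of all genes. NCED3 was 29.7, 26.6 and 25.9 in fld and ABI2 was 119, 121 and 97.7, in both cases below all Col0 libraries, with differences of -0.79 ± 0.17 (SE, limma, adjusted p = 0.000515) and -0.81 ± 0.10 (SE, limma, adjusted p = 7.37e-07). ABF3 was 515, 494 and 531 and rose by 0.57 ± 0.05 (SE, limma, adjusted p = 1.21e-08), and SNRK2.6 by 0.38 ± 0.08 (SE, limma, adjusted p = 0.00045). HAB1 also passed, at -0.17 ± 0.07, but not without Col0 library 1 or 3 or fld library 1 or 2 (adjusted p between 0.0837 and 0.228). PYL4 rose by 0.16 ± 0.04, PP2CA differed by -0.39 ± 0.04 and ABI1 by 0.24 ± 0.05.

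**Figure D2:**
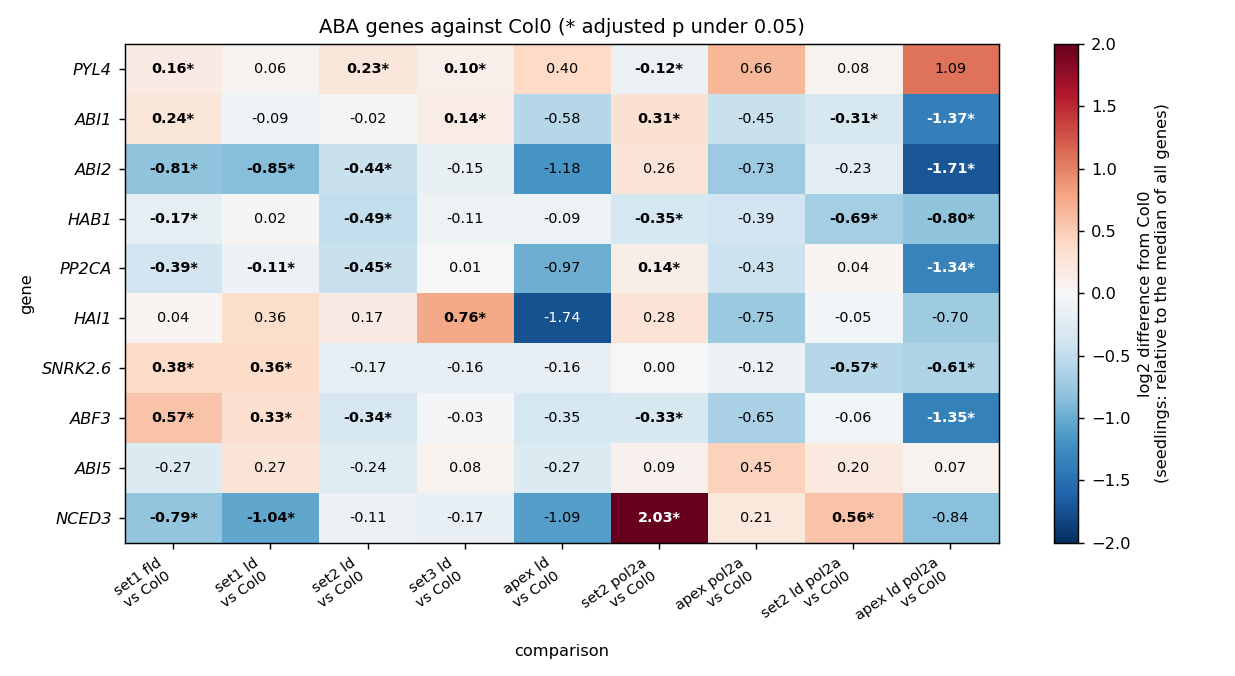
Log2 differences from Col0 of the 10 genes (rows) in the 9 comparisons with Col0 (columns), on the relative scale in seedlings and on TMM-scaled counts in apices; the colour runs from blue (lower) to red (higher) and a star marks an adjusted p under 0.05. NCED3 in pol2a seedlings of set 2 is the highest value at 2.03, and the 6 starred values of the apex ld pol2a column are all negative.

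In shoot apices the members that passed in ld pol2a all fell. Of the 10 members, 6 fell and none rose, against 10.9% of all genes that fell and 14.8% that rose (25.7% in either direction), and the members' median log2 difference was -0.82 beside 0.00 for all genes. The 6 were the phosphatases ABI1, ABI2, HAB1 and PP2CA, the kinase SNRK2.6 and the transcription factor ABF3. The apex labels name no spike-in and the counts were TMM-scaled, so all apex differences are relative to the bulk of genes. A shift of most genes, such as the median of 1.48 in ld pol2a seedlings on the spike-in scale, could not be seen in apices. In RNA from whole apices, fewer cells of a type and less RNA per cell cannot be told apart.

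ABI1 was at 94.3, 73.8 and 35.6 CPM in Col0 and 31.9, 24.7 and 22.4 CPM in ld pol2a. All ld pol2a libraries lay below all Col0 libraries, and the log2 difference was -1.37 ± 0.31 (SE, edgeR, adjusted p = 0.00801), or 0.388 of the Col0 level. SNRK2.6 was at 13.9, 12.1 and 9.89 CPM in Col0 and 8.04, 7.60 and 7.84 in ld pol2a, also without overlap (-0.61 ± 0.15 SE, edgeR, adjusted p = 0.0122). HAB1 was at 23.9, 21.9 and 13.4 CPM in Col0 and 13.0, 9.75 and 11.2 in ld pol2a, the lowest Col0 library just above the highest of ld pol2a (-0.80 ± 0.25 SE, edgeR, adjusted p = 0.0351).

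The other 3 overlapped through Col0 library 3. ABI2 was at 14.5, 12.9 and 4.23 CPM in Col0 and 4.26, 3.23 and 2.06 in ld pol2a (-1.71 ± 0.44 SE, edgeR, adjusted p = 0.0147). PP2CA was at 35.4, 31.7 and 12.6 CPM in Col0 and 13.6, 9.32 and 8.42 in ld pol2a (-1.34 ± 0.34 SE, edgeR, adjusted p = 0.0141). ABF3 was at 22.2, 19.0 and 7.32 CPM in Col0 and 8.08, 6.02 and 4.69 in ld pol2a (-1.35 ± 0.42 SE, edgeR, adjusted p = 0.0331). Col0 library 3 was the lowest of the Col0 libraries for each of the 6 genes.

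The members that did not pass in ld pol2a apices included both ends of the pathway. The receptor PYL4 was at 42.0, 38.6 and 113 CPM in Col0 and 99.1, 163 and 150.0 in ld pol2a (1.09 ± 0.40 SE, edgeR, adjusted p = 0.0651), with Col0 library 3 far above the other Col0 libraries. NCED3 was at 2.04, 1.52 and 0.679 CPM in Col0 and 1.69, 0.0717 and 0.385 in ld pol2a (-0.84 ± 0.80 SE, edgeR, adjusted p = 0.468), and at this depth no difference was detectable. HAI1 (-0.70 ± 0.41 SE, edgeR, adjusted p = 0.224) and ABI5 (0.07 ± 0.36 SE, edgeR, adjusted p = 0.903) did not pass either.

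**Figure D3:**
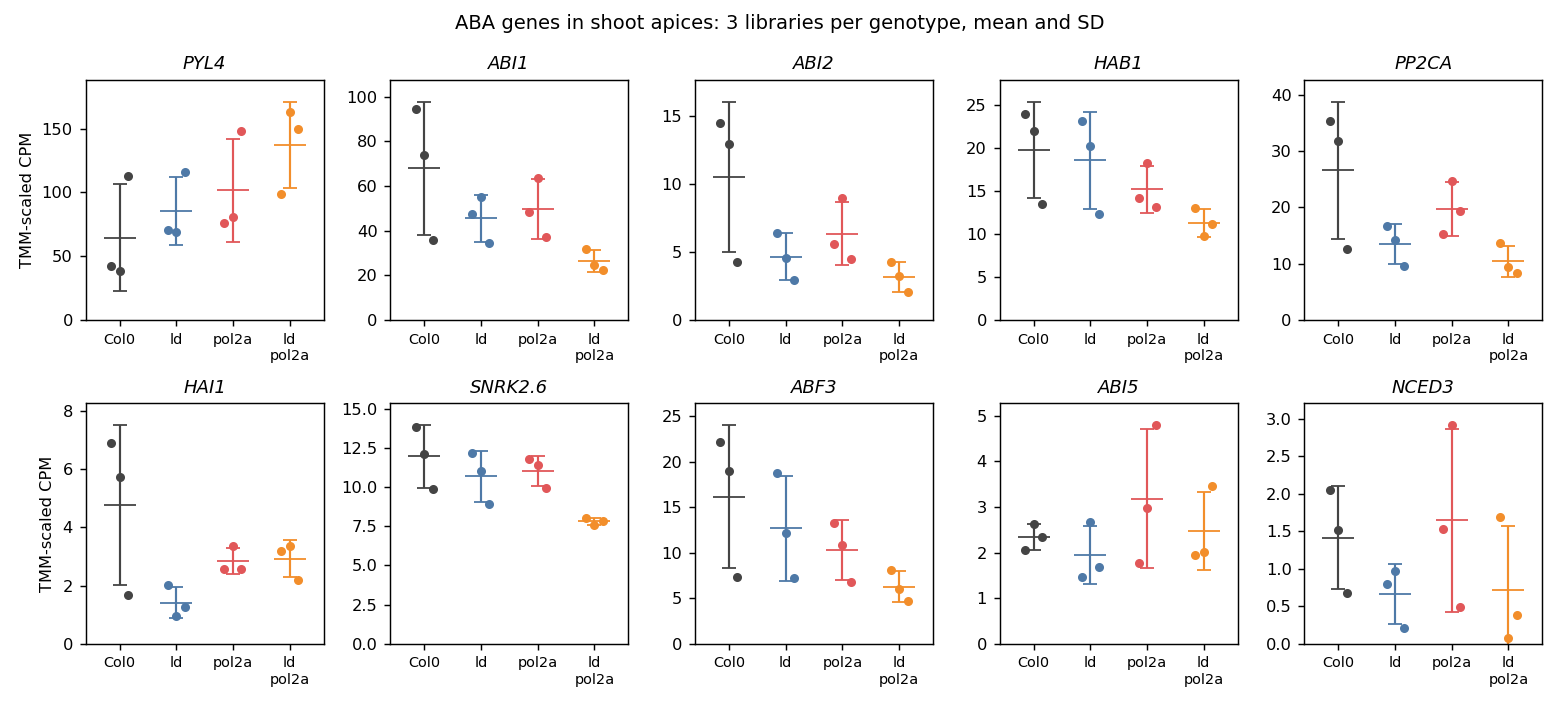
TMM-scaled CPM (y axis, linear, from 0) of the 10 ABA genes in shoot apices by genotype (x axis); points are the 3 libraries, the long bar is the mean and the error bars are the SD. ABI1 lies between 22.4 and 31.9 in ld pol2a and between 35.6 and 94.3 in Col0, while PYL4 has 1 Col0 library at 113 among values of 38.6 and 42.0.

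These calls depended on single libraries. Leaving out Col0 library 1 left 1 member called lower, ABI1, with 7.25% of all genes called lower. Leaving out ld pol2a library 3 left 2 (ABI1 and SNRK2.6, 6.38% of all genes), leaving out ld pol2a library 2 left 3 (ABI1, ABI2 and SNRK2.6, 6.5%), and leaving out Col0 library 2 left 4 (8.45%), without HAB1 (adjusted p = 0.0914) and ABF3 (adjusted p = 0.0887). ABF3 also did not pass with no filter on low counts (adjusted p = 0.0697). Leaving out all libraries numbered 3 left 7 lower (the 6 and HAI1, at -0.94, adjusted p = 0.0302) and 1 higher, PYL4, at 1.69 (adjusted p = 0.000704) in edgeR, with 11% of all genes lower and 13.5% higher. Without them ABI1 was at -1.57 (adjusted p = 0.000539), PP2CA at -1.53 (adjusted p = 0.00237) and SNRK2.6 at -0.73 (adjusted p = 0.0054).

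No member passed in the single mutants' apices in edgeR, where 0.968% of all genes were called for ld and 6.04% for pol2a. At an unadjusted p under 0.05, the share of all genes was larger, with 3577 genes for ld and 3865 for pol2a. Among the phosphatases HAI1 was at 2.00, 0.967 and 1.27 CPM in ld against 6.89, 5.73 and 1.66 in Col0 (-1.74 ± 0.44 SE, edgeR, adjusted p = 0.0802), and PP2CA at 16.8, 14.1 and 9.66 CPM (-0.97 ± 0.34 SE, edgeR, adjusted p = 0.156). Col0 library 3 overlapped with ld for both, but within each replicate number HAI1, ABI2 and PP2CA were lower in ld than in Col0. So were ABI1, HAB1, SNRK2.6, ABF3 and NCED3, some by little, whereas PYL4 was higher within each number and ABI5 was mixed. The share of all genes that behaved so was not counted. With the replicate number as a block, ABI2 (-1.11, adjusted p = 0.0434) and HAI1 (-1.66, adjusted p = 0.0408) passed in ld and no member in pol2a, with 2.8% and 7.86% of all genes called, and DESeq2 called HAI1 in ld (adjusted p = 0.00973). Without all libraries numbered 3, ABI1 (-0.71, adjusted p = 0.0331), ABI2 (-1.31, adjusted p = 0.0144), PP2CA (-1.11, adjusted p = 0.0229) and HAI1 (-2.06, adjusted p = 0.00854) were lower and PYL4 (0.79, adjusted p = 0.0347) was higher in ld, with 6.23% of all genes lower and 5.35% higher. The same libraries left out of pol2a gave ABI2 (-0.90, adjusted p = 0.0451) and HAI1 (-1.07, adjusted p = 0.0449) lower and PYL4 (0.97, adjusted p = 0.0179) higher, with 3.29% and 5.28%. NCED3, which rose in pol2a seedlings, was at 1.53, 2.91 and 0.486 CPM in pol2a apices (0.21 ± 0.76 SE, edgeR, adjusted p = 0.921).

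Set against the single mutants, ld pol2a apices had lower HAB1 (-0.71 ± 0.25 SE, edgeR, adjusted p = 0.0468) and SNRK2.6 (-0.45 ± 0.15 SE, edgeR, adjusted p = 0.0387) than ld, against 15.8% of all genes lower, 18.3% higher and 34% in either direction, but the call of HAB1 was lost when any of 4 single libraries was left out and that of SNRK2.6 when any of 5 was. Against pol2a no member passed, with 14.3% of all genes called; SNRK2.6 was nearest, at -0.49 ± 0.15 (SE, edgeR, adjusted p = 0.0501). DESeq2 called 3 members lower there, and the share of all genes it called lower is not given here. The interaction passed for no member in edgeR, against 7.54% of all genes, so the fall in ld pol2a was not shown to exceed the sum of the single effects. HAI1 had the highest interaction, 1.78 ± 0.61 (SE, edgeR, adjusted p = 0.0983), and without all libraries numbered 3 it was 2.19 (adjusted p = 0.0135), with 10.2% of all genes called.

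Guard cell markers were lower beside the phosphatases in ld pol2a apices. FAMA, MYB60, KAT1, HT1 and SLAC1 summed to 34.8 to 42.3 CPM in Col0, 38.3 to 42.7 in ld, 19.8 to 27.5 in pol2a and 9.96 to 11.0 in ld pol2a, with none of the 5 at 0. FAMA, a regulator that makes guard cells, differed by -2.19 ± 0.16 (SE, edgeR, adjusted p = 6.94e-06) in ld pol2a, and 4 of the 5 were called lower there. In pol2a 1 of the 5, FAMA (-1.10 ± 0.16), and in ld none of the 5 was called in edgeR. The shoot meristem list (STM, WUS, CLV3, KNAT1) went the other way, from 9.44 to 11.4 CPM in Col0 to 20.2 to 21.7 in ld pol2a. It was at 11.8 to 13.8 CPM in ld and at 20.5 to 23.4 in pol2a, where no member passed in edgeR. The root list (EIR1, RHD6, SCR, GL2) summed to 46.0 to 59.3 CPM in Col0, 51.6 to 62.1 in ld, 27.3 to 34.8 in pol2a and 46.9 to 52.3 in ld pol2a. Most of that sum was SCR and GL2, with means of 1.23 CPM for EIR1 and 0.0482 for RHD6 in Col0. GL2 was at 21.8 ± 6.43 CPM in Col0 and 2.24 ± 0.927 in pol2a. The part of these cell types in the fall of the members was not tested. In set 2 seedlings the summed signal of the guard cell list was 194 to 228 in Col0, 226 to 238 in pol2a and 413 to 445 in ld pol2a, where the median of all genes also rose. The list did not move together there. FAMA signal was 98.0 ± 12 in Col0, 46.0 ± 2.23 in pol2a and 98.1 ± 5.67 in ld pol2a (SD, n = 3), with relative log2 differences of -1.13 ± 0.13 in pol2a (limma, adjusted p = 1.7e-07) and -1.46 ± 0.13 in ld pol2a (adjusted p = 5.16e-09). KAT1 signal instead rose, from 45.0 ± 6.75 in Col0 to 108 ± 7.97 in pol2a and 155 ± 22.4 in ld pol2a. Mean signals in the same order were 58.3, 66.1 and 144 for MYB60, 7.73, 6.54 and 18.2 for HT1, and 6.48, 6.88 and 17.2 for SLAC1.

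Other genes of the ABA pathway were described from a list of 59 by role, of which 39 to 42 passed the filter in a table. In pol2a seedlings 13 of 39 were higher and 20 lower on the relative scale, against 30% and 29.9% of all genes, the background for each role as well. Of 8 receptors 6 fell and 1 rose, led by PYL5 (from 1791 ± 61.9 to 1018 ± 38.8 relative signal, -0.81 ± 0.05 SE, limma, adjusted p = 3.8e-12) and PYL8 (-0.68 ± 0.04 SE, limma, adjusted p = 1.18e-11). Of 5 transcription factors 4 fell and 1 rose, with ABF4, the close relative of ABF3, at -0.85 ± 0.05 (SE, limma, adjusted p = 1.2e-11). All 3 hydroxylases of ABA breakdown that were tested, CYP707A1, CYP707A2 and CYP707A3, rose, and both transporters fell. BGLU18, a glucosidase that releases ABA from its stored glucose ester, rose by 1.01 ± 0.04 (SE, limma, adjusted p = 1.31e-15). Genes that respond to ABA and water loss split, with 6 of 12 higher and 5 lower. RD29A, a dehydration-induced gene, went from 1306 ± 51.6 to 3796 ± 79.9 (1.54 ± 0.05 SE, limma, adjusted p = 2.51e-16), RD22 rose by 0.92 ± 0.04 and KIN1 by 1.34 ± 0.09, while the NAC factor RD26 fell from 565 ± 24.8 to 183 ± 2.64 (-1.62 ± 0.06 SE, limma, adjusted p = 7.12e-15). KIN1 and KIN2 are near-identical copies whose reads may be split between them.

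In ld pol2a seedlings 10 of these 39 genes were higher and 15 lower, against 29.2% and 28.3% of all genes. BGLU18 (0.67 ± 0.04 SE, limma, adjusted p = 1.75e-12), the synthesis gene ABA1 (0.62 ± 0.04 SE, limma, adjusted p = 4.99e-11), RD22 (0.34 ± 0.04) and the homeobox gene HB-7 (0.69 ± 0.08) led the rises. PYL8 (-0.93 ± 0.04 SE, limma, adjusted p = 1.44e-13), RD26 (-0.94 ± 0.06), the importer NPF4.6 (-0.59 ± 0.04) and RD29A (-0.52 ± 0.05 SE, limma, adjusted p = 1.34e-08) led the falls. RD29A thus lay above Col0 in pol2a and below it in ld pol2a, at 908 ± 52.9 relative signal. By spike-in signal 38 of the 39 were higher in ld pol2a and none lower, and the falls named here turned to rises, RD29A to 0.96 ± 0.04.

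In ld seedlings 7 of 40 were higher and 17 lower in set 1, against 25.4% and 27.6% of all genes. In set 2, 6 of 39 were higher and 6 lower, against 18.2% and 16.2%, and in set 3, 12 of 42 were higher and 10 lower, against 19.2% and 19.3%. RD29A and KIN2 were called lower in each: RD29A at -1.71 ± 0.04 (SE, limma, adjusted p = 1.3e-17), -0.20 ± 0.05 and -0.64 ± 0.05, and KIN2 at -0.68 ± 0.02, -0.66 ± 0.04 and -0.81 ± 0.03. RD22 fell in sets 1 (-0.71 ± 0.03) and 3 (-0.16 ± 0.03) and rose in set 2 (0.50 ± 0.04). ABA1 fell in set 1 (-0.19 ± 0.04) and rose in sets 2 (0.29 ± 0.04) and 3 (0.22 ± 0.03). In set 1 the cofactor gene ABA3 (1.03 ± 0.12 SE, limma, adjusted p = 3.49e-07), ABF4 (0.34 ± 0.05), ABF1 (0.32 ± 0.05) and EEL (0.62 ± 0.10) led the rises and RD26 (-0.55 ± 0.05) was among the falls. In set 2 the kinase gene SNRK2.2 (0.21 ± 0.04) and PYL5 (0.26 ± 0.05) rose, and PYL9 (-0.43 ± 0.09) and AFP3 (-0.47 ± 0.11), a partner of ABI5, fell. In set 3 HB-7 (0.46 ± 0.05), BGLU18 (0.21 ± 0.03) and the hydroxylase CYP707A1 (0.52 ± 0.08) rose and PYL8 (-0.32 ± 0.03) fell. In fld, 13 of 40 were higher and 11 lower, against 29.4% of all genes in each direction, with RD29A at -2.50 ± 0.04 (SE, limma, adjusted p = 1.97e-20), KIN2 at -1.60 ± 0.02, BGLU18 at -0.89 ± 0.05 and RD22 at -0.84 ± 0.03, and with ABA3 (1.17 ± 0.12), EEL (0.54 ± 0.10), ABF2 (0.44 ± 0.08) and ABF1 (0.27 ± 0.05) leading the rises. By spike-in signal most of these genes rose with the shift (37, 34 and 38 in ld of sets 1, 2 and 3 and 38 in fld) and 1 fell in each. That gene was RD29A in ld of set 1 (-0.47 ± 0.05) and in fld (-0.84 ± 0.05), and KIN2 in ld of sets 2 (-0.09 ± 0.04) and 3 (-0.12 ± 0.03).

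In ld pol2a apices 2 of the 40 other genes tested rose and 16 fell, against 14.8% and 10.9% of all genes, and their median log2 difference was -0.52 beside 0.00 for all genes. AFP3 went from 15.1 ± 4.41 to 3.88 ± 0.460 CPM (-1.95 ± 0.27 SE, edgeR, adjusted p = 0.000458), ABA1 from 240.4 ± 30.4 to 117 ± 15.8 (-1.03 ± 0.17 SE, edgeR, adjusted p = 0.00144) and CYP707A2 from 6.26 ± 1.12 to 1.58 ± 0.457 (-1.96 ± 0.34 SE, edgeR, adjusted p = 0.00167), each without overlap. ABF4 fell by 0.60 ± 0.10. Of 11 response genes 6 fell and none rose, and both further phosphatases that were tested, HAB2 and HAI2, fell. The receptor PYL6 (1.29 ± 0.42 SE, edgeR, adjusted p = 0.0414) and the bZIP gene EEL (0.76 ± 0.22 SE, edgeR, adjusted p = 0.0238) rose. In pol2a apices RD22 (-0.77 ± 0.18 SE, edgeR, adjusted p = 0.0298) and ABF4 (-0.43 ± 0.10 SE, edgeR, adjusted p = 0.031) fell and none rose, and in ld none of the 40 passed. Without all libraries numbered 3, 4 rose and 18 fell in ld pol2a, against 13.5% and 11% of all genes. In pol2a none rose and 3 fell, against 5.28% and 3.29%, and in ld 2 rose and 9 fell, against 5.35% and 6.23%.

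**Figure D4:**
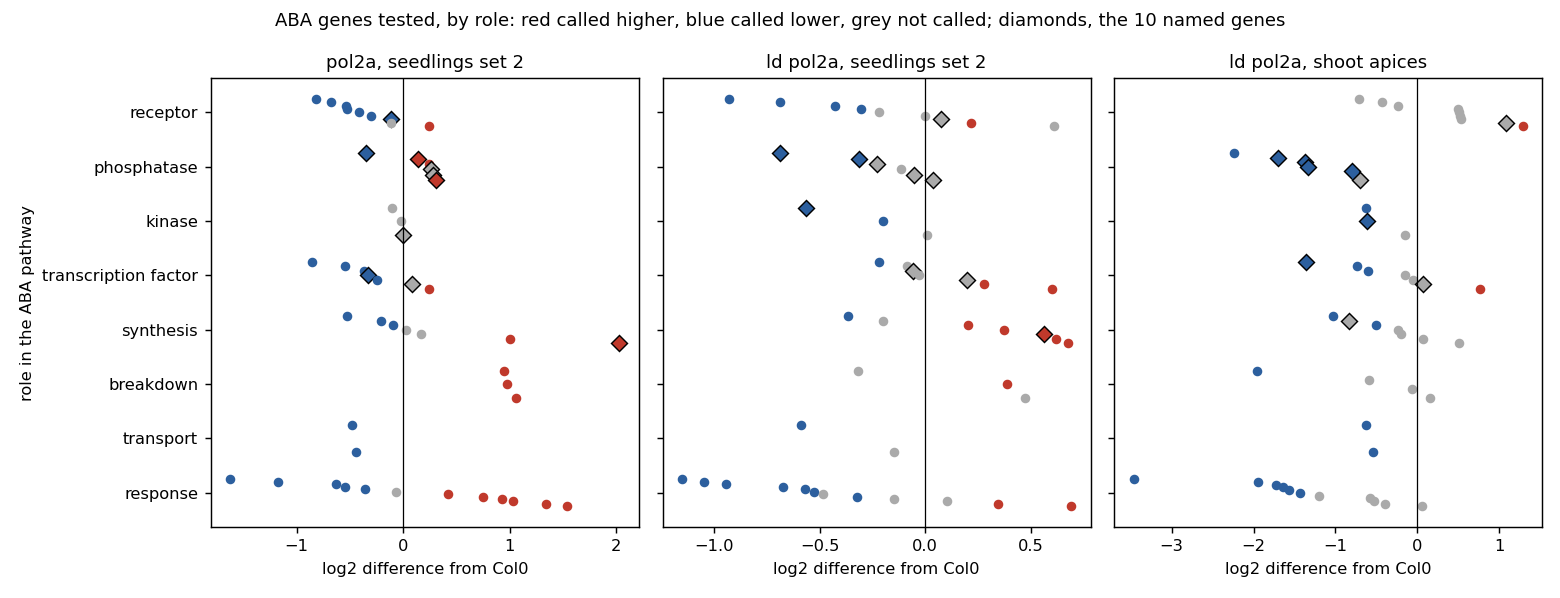
Log2 difference from Col0 (x axis; its range differs between panels) of the ABA genes tested, by role (rows), in pol2a and ld pol2a seedlings of set 2 (relative scale) and in ld pol2a apices; red points were called higher, blue lower and grey neither, and diamonds are the 10 members. NCED3 is the diamond at 2.03 in pol2a seedlings, and the 4 phosphatases called lower in apices lie between -1.71 and -0.80.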

How the data were processed

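The 3 seedling tables hold signal, which per the file headers and labels is a count per gene normalized with a spike-in; no source used here gives its identity or factors. All values were whole multiples of 1 step per library within 0.1 reads (100%). The apex table holds raw counts per gene as deposited by the authors. The submitters' processing notes name Trimmomatic 0.38, HISAT2, SAMtools 1.9, featureCounts, deepTools, DESeq2 and the build TAIR10, without roles or settings. No column of values was left unused.

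Each seedling set had its own limma fit (version 3.58.1 in R 4.3.3) to log2(signal + 1), as deposited by the authors and after division by median-of-ratios factors (the relative scale), for genes with a mean signal of at least 10: 19069, 19444 and 20998 genes in sets 1, 2 and 3. edgeR 4.0.16 (quasi-likelihood, TMM, filterByExpr) tested 18705 genes on the apex counts. Each fit used all libraries of its table with genotype as the term, and p-values were Benjamini-Hochberg adjusted over all genes tested, with a threshold of 0.05. Log2 differences carry their SE and levels their SD, with n = 3. On the reads recovered from the steps, edgeR called 11548 genes in pol2a and 19153 in ld pol2a seedlings on the spike-in scale, where limma called 11516 and 19109. The scripts were tested on simulated data.

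In sets 1 and 2 the last direction of spread within groups held 0.01% and 0.0142% of the variance, against 4.27% in set 3 and 1.98% in apices, so those libraries vary in fewer ways than their number gives and p-values there may be too small. In 3 library pairs the libraries differed by about the sampling noise or by less. Chi-square per degree of freedom was 0.944 for set 1 fld 1 and 3 and 1.02 for set 1 ld 2 and 3. It was 0.605 for set 3 Col0 1 and 2. The fld and Col0 pairs differed by less than independent sampling of reads would give, so p-values in set 3 may be too small as well. How this came about was not tested. The pairs were kept as separate libraries and, as an alternative chosen after seeing the data, counted as 1. Set 1 fld 1 and 2 came close to these pairs, at 1.03 (chi-square, p = 0.00563), and were not counted among them.

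The 10 members were given, and all are described. Of the other 59 genes, up to 4 per direction with the smallest p were named in each comparison with Col0, besides a few named after their values were seen where a count was small. Members and lists were chosen with earlier results of these data known. Alternatives were other pseudocounts, filters, scalings, DESeq2 1.42.0, a replicate block and leaving out libraries. Leaving out all apex libraries numbered 3 was chosen after seeing the data. The labels do not say that replicate numbers mark a shared batch. All 3 same-numbered pairs deviated together (r over 0.1) between Col0 and ld apices (r = 0.291, 0.615 and 0.635) and between Col0 and pol2a apices (r = 0.421, 0.526 and 0.289), so blocked values are given there, and not between the groups of any other comparison with Col0.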

Additional observations from a re-analysis of the deposited data

Results flagged for a closer look

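In seedling set 2 the effect of ld differed with and without pol2a for 5 members, by a test of the interaction itself on the relative scale (limma, adjusted). The same test called 51.5% of all genes, so this count is near the background. The interaction was -1.35 for NCED3 (adjusted p = 0.0017), -0.60 for ABI1 (adjusted p = 3.06e-06), -0.39 for SNRK2.6 (adjusted p = 0.00698), 0.35 for PP2CA (adjusted p = 0.000552) and 0.61 for ABF3 (adjusted p = 3.61e-05). On the spike-in scale, where the median over all genes was 0.86, it was -0.48 for NCED3 (adjusted p = 0.162), 0.26 for ABI1, 0.47 for SNRK2.6, 1.21 for PP2CA and 1.48 for ABF3.

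ABF3 went opposite ways in ld of 2 seedling sets on the relative scale, with all ld libraries above Col0 in set 1 (0.33) and all below Col0 in set 2 (-0.34). The difference between the sets was not tested. On the spike-in scale ABF3 was higher in ld in both.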

How the results depend on the processing

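With libraries left out one at a time aside, 1395 recomputed log2 values of members kept their side of the threshold, 13 lost the call and 42 gained it. With 1 library left out, the numbers were 1537, 55 and 28. Values that passed in neither fit could change sign and still count as kept. ABI5 in ld pol2a apices did so, at 0.07 with all libraries and -0.24 without those numbered 3. No called value of a member changed sign between the alternatives of 1 scale. In ld apices 181 genes were called, and the count was 114 with no filter on low counts, 815 with DESeq2, 524 with the replicate block, 5 with only the groups compared and 2178 without all libraries numbered 3; in pol2a apices it was 1129, and 693 with only the groups compared. Members called lower in ld apices were 1 with DESeq2, 2 with the block, and 4 with 1 higher without the libraries numbered 3; in pol2a apices the last gave 1 higher and 2 lower. In ld pol2a apices 1 member was higher than Col0 with the block and without the libraries numbered 3, where 17.2% and 13.5% of all genes were higher. Against ld, none was lower with no filter on low counts (0), 4 with DESeq2, 4 with 1 higher with the block, and 4 with 2 higher without the libraries numbered 3. Against pol2a, 1 was lower with median-of-ratios factors, 3 with DESeq2, 5 with the block, 3 with only the groups compared, and 3 with 1 higher without the libraries numbered 3, which also gave 1 higher interaction. With the block, 18% of all genes were lower and 20.6% higher against ld, and 8.46% and 10.4% against pol2a. Not all same-numbered libraries deviated together in these comparisons, so the block is no clear pairing there. For libraries 1, 2 and 3, r was 0.661, -0.347 and 0.505 between ld pol2a and ld. Between ld pol2a and pol2a it was -0.151, -0.316 and 0.207. Without the libraries numbered 3 the shares were 20.1% and 21.2% against ld, 6.43% and 5.99% against pol2a, and 6.12% for a higher interaction. For the other alternatives against ld and pol2a the shares of all genes are not given here. In ld pol2a seedlings on the relative scale 0 members were higher with no filter on low values and with the block. The causes of these moves were not tested.

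With 1 library left out, genes called in apices ranged from 10 to 2524 for ld (10 without Col0 library 1, 2524 without ld library 3), 515 to 922 for pol2a, 2727 to 4157 for ld pol2a, 3862 to 8441 against ld, 966 to 2216 against pol2a and 494 to 3619 for the interaction. Members called lower in apices ranged from 0 to 2 for ld, 0 to 1 for pol2a, 1 to 7 for ld pol2a, 0 to 4 against ld and 0 to 1 against pol2a, and members called higher from 0 to 1 for pol2a, ld pol2a and the interaction. In the same order, the shares of all genes lower were 0.0264% to 6.86%, 0.929% to 1.82%, 6.38% to 9.88%, 9.05% to 22.7% and 2.32% to 5.08%. The shares higher were 1.73% to 3.13%, 8.05% to 12.1% and 1.85% to 10.4%. In seedlings, members higher ranged from 0 to 1 in ld pol2a on the relative scale and 5 to 8 in ld of set 2 on the spike-in scale. With all libraries, 29.2% and 79.8% of all genes were called so. Members lower ranged from 1 to 3 in pol2a and 0 to 1 for the interaction on the spike-in scale, and 0 to 1 in ld of set 3 on the relative scale. With all libraries, 25.2%, 1.57% and 19.3% of all genes were called so.

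The block changed the call of NCED3 in ld pol2a seedlings (adjusted p = 0.0543), of ABI2 in pol2a seedlings on the spike-in scale (adjusted p = 0.0604) and of PYL4 in ld pol2a apices (1.24, adjusted p = 0.00307), where the numbers do not pair the groups. With 1 to 39 reads per library in apices, NCED3 differences there could not be measured closely.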
